A study of Mus musculus with 6 samples.

Results

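Copying a genome takes a fixed order of machines, and the 40 genes described here encode them in long-term hematopoietic stem cells (LT-HSCs) of old mice. They were chosen by gene symbol from general knowledge of DNA replication and not by a rule on a measured value, though earlier results of these data were known, and all 40 were found among the 55450 genes of the deposited count tables. All 40 passed the filter on low counts, which left 15610 genes for testing. The libraries came from wild-type (WT) male C57/Bl6 mice aged 22 to 24 months, with no treatment and no genetic change in any of them. LT-HSCs were sorted as cells with Sca1, cKit and CD150 on their surface and without lineage markers or CD48. CD61High stands for cells in the upper 10% of surface CD61, which is integrin beta 3, and CD61Low for cells in the lower 10%. Each library was made from 5000 sorted cells by bulk RNA sequencing. Each of 3 mice gave 1 CD61High and 1 CD61Low library, and the single comparison asks how both ends of the CD61 range differ. The sample names give 1 mouse per library and the sorting text mentions pools, so each number was taken as 1 animal.

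LT-HSCs are known as mostly resting cells that enter the cell cycle rarely. In a cell that prepares to divide, the origin recognition complex, Cdc6 and Cdt1 load the ring-shaped MCM2-7 helicase onto DNA, a step called licensing. Kinases, Cdc45 and the GINS complex then switch the helicase on, polymerases copy the opened strands around the sliding clamp, and enzymes of nucleotide synthesis supply the building blocks. Many of these genes are textbook targets of E2F factors, which are released when cyclin E and its partner kinase act at the G1/S switch.

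Total counts on genes were 21354130 to 26398090 per library. The libraries of mouse 2 stood apart from the other 4. The 9 HSC markers Procr, Slamf1, Kit, Ly6a, Mecom, Hlf, Fgd5, Mllt3 and Hoxb5 were detected in all 6 libraries. Their summed level was 2694, 1622 and 2899 CPM in CD61High of mice 1, 2 and 3. In CD61Low it was 3910.0, 1269 and 3952 CPM. Lower in CD61High were 7 of the 9 in mouse 1, 6 in mouse 2 and 9 in mouse 3, although the sum of mouse 2 was higher there. Of all 15610 tested genes, 7796, 8609 and 7967 were lower in CD61High of mice 1, 2 and 3. CPM stands for the counts of a gene scaled by the library total and by a TMM factor, estimated for each library. The factors ran from 0.767 in CD61Low of mouse 2 to 1.11 in CD61Low of mouse 3. A low factor raises all values of a library, so the scaled totals differ between the 6 libraries. The 10 late neutrophil markers, which LT-HSCs should lack, summed to 4506, 72307 and 226 CPM in CD61High and 18614, 143107 and 1438 CPM in CD61Low. All 10 were detected in every library. In bulk samples, fewer cells of a type and less RNA per cell cannot be told apart. Calls with the mouse as a block and without mouse 2 are given for each role, and they describe mice 1 and 3 only. The same fits without mouse 1 or without mouse 3, given below, called none of the replication genes.

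Transcripts of the replication machinery were more abundant in CD61High than in CD61Low of mice 1 and 3, while in mouse 2 both gates held similar amounts. Summed over the 40 genes, the level was 6052, 8257 and 7217 CPM in CD61High of mice 1, 2 and 3 and 2735, 7891 and 2213 CPM in CD61Low. CD61High held 2.21, 1.05 and 3.26 times the CD61Low level in mice 1, 2 and 3. The CD61High libraries lay close together, and CD61Low ranged widely, with mouse 2 inside the CD61High range. Within mouse 1, 38 of the 40 genes were higher in CD61High, where 50.1% of all tested genes were, and the median log2 difference of the 40 was 1.16. In mouse 3, 40 of 40 were higher, where 48.2% of all tested genes were, with a median of 1.78. In mouse 2, 22 of 40 were higher, where 44.8% of all tested genes were, with a median of 0.03. With library totals alone as the scale, the median of mouse 2 was 0.30. Differences of at least 2-fold were found for 28, 0 and 38 of the 40 genes in mice 1, 2 and 3, against 5.26%, 5.02% and 5.91% of all tested genes. A total of 22 genes were higher in CD61High in all 3 mice, where 20.6% of tested genes were, and 0 were lower in all 3, where 24.7% of tested genes were.

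**Figure D1:**
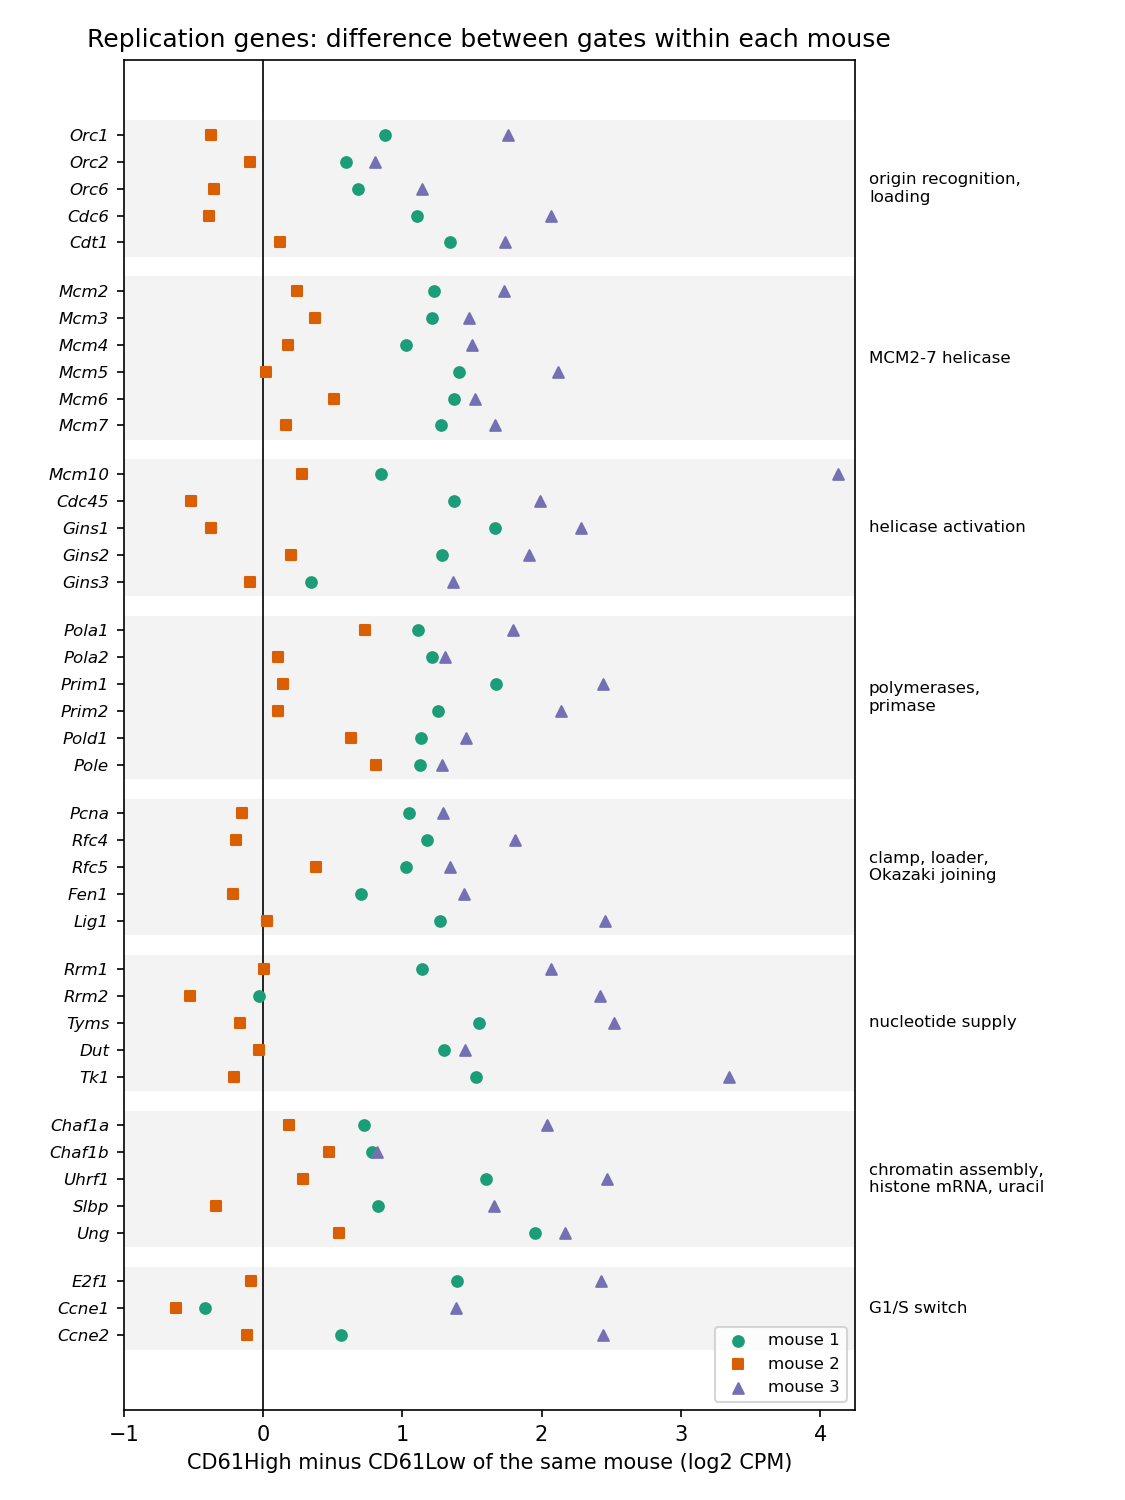
Log2 difference in level (CD61High minus CD61Low of the same mouse) for each of the 40 replication genes, grouped by role, with 1 point per mouse. The points of mouse 3 lie between 0.80 and 4.13 and those of mouse 1 between -0.42 and 1.95, while those of mouse 2 lie between -0.62 and 0.81.

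Over all 6 libraries, no gene of the 40 passed in edgeR, the tool set as the main test. In edgeR's quasi-likelihood test with Benjamini-Hochberg adjustment over 15610 genes, 0 of 40 had an adjusted p under 0.05, and the share of all genes called higher was 0%. The lowest adjusted p was 0.652. At an unadjusted p under 0.05, 9 of 40 were higher, where 3.56% of all genes were, and 0 were lower, where 3% of all genes were. The median log2 fold change of the 40 was 0.78, against -0.05 over all tested genes, and 38 of 40 were above 0. Since 2 libraries came from each mouse, the test was also run with the mouse as a block. It called 0 of 40 again, where 0.0961% of all genes were called higher, but the lowest adjusted p was 0.0512, and 24 of 40 were higher at an unadjusted p under 0.05, where 8.01% of all genes were. Of the 40, 0 were lower by either rule, where 0.16% of genes passed the adjusted and 12.8% the unadjusted threshold. The median with the block was 1.03, against -0.02 over all genes, and 40 of 40 were above 0.

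The number of calls was far larger without mouse 2. With the block and without both libraries of mouse 2, edgeR called 27 of the 40 genes higher, where 1.85% of tested genes were called higher, and 0 lower, where 2.93% were called lower. The median log2 fold change of the 40 was 1.45. In the same fit edgeR called 5 of the 9 HSC markers and all 10 late neutrophil markers lower. With the block and all 6 libraries it already called 2 of the 9 HSC markers lower, but 0 of the 10 late neutrophil markers, where 0.16% of genes were called lower. Without mouse 1 edgeR called 0 of 40 (0% of tested genes), and without mouse 3 also 0 (0.00621%). Mouse 2 had the smallest difference between gates, with a median of 0.03 for the 40 genes. The fit without it therefore describes mice 1 and 3 only, and its calls depend on leaving mouse 2 out. Leaving out the pair with the smallest difference favours calls, and 2 libraries per gate leave little to estimate error from. The SE and adjusted p of that fit, here and under each role, are therefore descriptive. Calls also differed between tools. DESeq2 called 4 of 40 higher without the block, where it called 0.88% of genes higher, and 21 with it, where it called 3.23%. It called 0 of 40 lower in both, where it called 0.736% of genes lower without and 7.87% with the block. All 21 were among the 27. The limma voom test called 0 without the block (0% of genes) and 7 with it, where it called 0.801% of genes higher. With the block voom called 0 of 40 lower, where it called 2.33% of genes lower. The 4 genes that DESeq2 called without the block were Pola1, Pold1, Pole and Chaf1b, and voom called them too, together with Mcm3, Mcm6 and Rfc5.

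**Figure D2:**
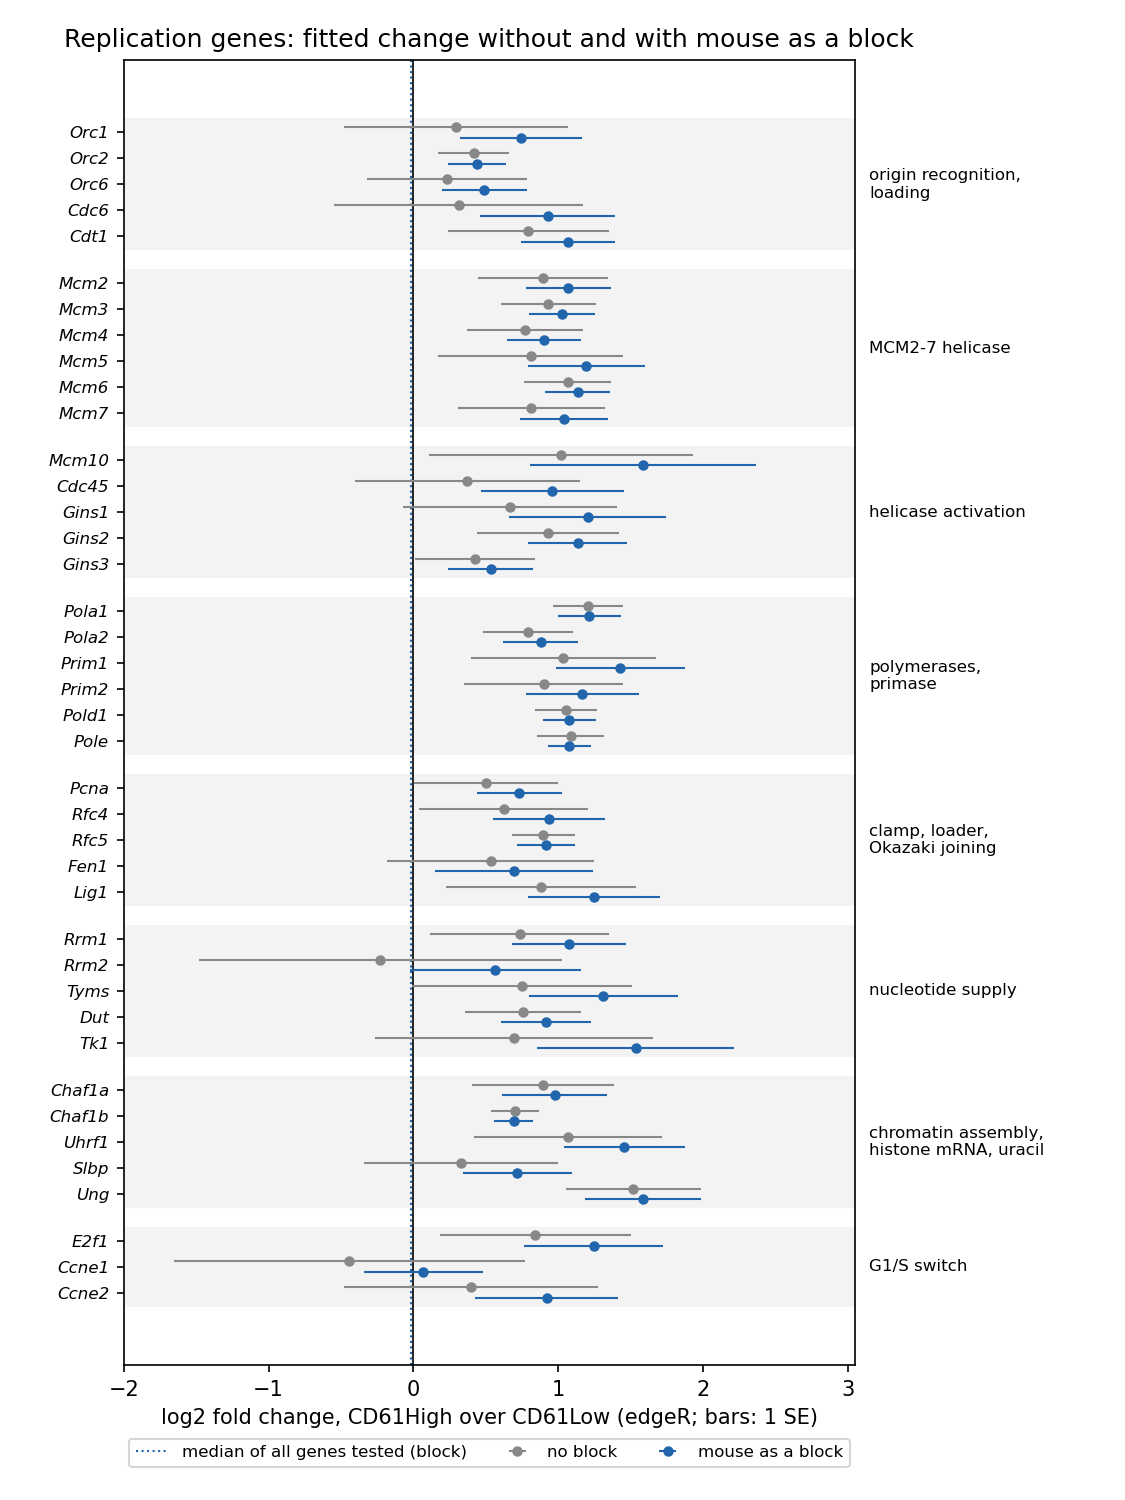
Log2 fold change (CD61High over CD61Low) of each of the 40 genes in edgeR without the mouse block (grey) and with it (blue), with bars of 1 standard error and a dotted line at the blocked median of all tested genes. The estimates with the block are all above 0, from 0.07 for Ccne1 to 1.59 for Ung, and those without the block are below 0 for Rrm2 and Ccne1.

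Stretches before RefSeq starts of 5 genes are shown. The kind shown is E2F-type letters, because of the 3 kinds searched its share differed most from that of all genes. Windows of 300 bases, from 250 before to 50 after the start, were taken from RefSeq on GRCm38.p6, which held 34 of the 40 genes. The letters TTTCCCGC, TTTCGCGC, TTTGCCGC or TTTGGCGC were searched on both strands, and overlapping matches were joined. They were present for 12 of 34 genes (35.3%), against 704 of 27025 genes with such a window (2.61%). Capitals mark the matches, and each stretch is on the strand of its gene, with no annotated exon in it.
Cdc6: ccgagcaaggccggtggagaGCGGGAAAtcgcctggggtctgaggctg
Mcm5: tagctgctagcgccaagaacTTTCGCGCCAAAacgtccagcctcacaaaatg
Mcm6: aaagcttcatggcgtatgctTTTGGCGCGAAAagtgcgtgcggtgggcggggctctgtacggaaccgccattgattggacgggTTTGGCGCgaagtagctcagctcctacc
Pola1: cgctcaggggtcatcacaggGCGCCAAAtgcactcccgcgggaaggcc
Uhrf1: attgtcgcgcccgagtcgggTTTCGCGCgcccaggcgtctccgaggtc
These lie at chr11:98907993-98908040, chr8:75109336-75109387, chr1:128359725-128359835, chrX:93632266-93632313 and chr17:56304108-56304155. The plus strand is printed for Cdc6, Mcm5 and Uhrf1 and the minus strand for Mcm6 and Pola1. The Uhrf1 stretch precedes a later RefSeq start and lies inside the annotated gene, which begins at 56303321. The window of its earlier RefSeq start held 0 matches. The Cdc6 stretch precedes its RefSeq start but also lies inside the annotated gene, which begins at 98907801. In Mcm6 and Mcm5, matches on both strands overlap in a single run, and Mcm6 has a separate match nearer its start.

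The letters were unevenly spread over the roles. The helicase genes held them most often, in 4 of the 5 with a window, followed by origin loading with 3 of 5 and the polymerases with 2 of 4. Nucleotide supply had 0 of 5 and the G1/S switch 0 of 2. The E2f1 window (154569377 to 154569676) lies inside the annotated gene, which begins at 154569892 on the minus strand. Other forms of the E2F-type letters were not searched, so 0 matches do not show that a site is absent. Other replication genes, a second fixed list, had them in 15 of 40 (37.5%), and G2 and mitosis markers in 1 of 16 (6.25%). The mitosis markers held CCAAT, the letters bound by NF-Y, in 14 of 16 (87.5%) and TTTGAA, the cell cycle homology letters, in 11 of 16 (68.8%). For the replication genes these shares were 19 of 34 (55.9%) and 4 of 34 (11.8%), against 41.1% and 20.2% of all genes. CCAAT was also present in 5 of 5 MCM2-7 genes and 3 of 3 helicase activation genes, and TTTGAA in 1 of 5 and 2 of 3 of them. A match of letters is a description and was not tested as a binding site.

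Origin recognition and loading genes had the smallest median log2 fold change of the 8 roles in both edgeR fits of all 6 libraries. Their median log2 difference was 0.88, -0.35 and 1.74 in mice 1, 2 and 3, the lowest of the 8 roles in mouse 2 only. In the blocked fit without mouse 2 the clamp role was lower, at 1.21 against 1.32. The median log2 fold change of the 5 genes was 0.31 without the block and 0.75 with it. Without the block it was -0.11 when CD61Low of mouse 3 was dropped and 1.64 when that of mouse 2 was. Those fits drop 1 library of a pair. With the block it stayed above 0 when a whole mouse was left out, at 0.25 to 1.32. In mouse 2 only Cdt1 was higher in CD61High. Cdt1 (ENSMUSG00000006585.3, GRCm38 chromosome 8, 122568015 to 122573554), the loader that is destroyed once copying starts, stood at 86.7, 111 and 79.9 CPM in CD61High of mice 1, 2 and 3 and at 34.2, 102 and 23.9 CPM in CD61Low. The groups overlapped, since CD61Low of mouse 2 was above CD61High of mice 1 and 3. Its log2 fold change in edgeR was 0.79 (SE 0.56, adjusted p = 0.867) without the block and 1.07 (SE 0.33, adjusted p = 0.158) with it. Cdc6, the ATPase that loads the helicase together with Cdt1, stood at 55.7, 116 and 69.6 CPM in CD61High and 25.8, 152 and 16.6 CPM in CD61Low. The highest of the 6 libraries was CD61Low of mouse 2 and the lowest CD61Low of mouse 3. The fits gave 0.31 (SE 0.86, adjusted p = 0.95) and, with the block, 0.93 (SE 0.47, adjusted p = 0.32) in edgeR, and the unblocked estimate was -0.12 without CD61Low of mouse 3. Orc2, a core subunit of the origin recognition complex, stood at 47.8, 49.1 and 63.1 CPM in CD61High and 31.5, 52.3 and 36.1 CPM in CD61Low. Only CD61Low of mouse 2 reached the CD61High range. The edgeR estimate was 0.42 (SE 0.24, adjusted p = 0.82), and 0.44 (SE 0.202, adjusted p = 0.278) with the block. Orc2 shares 29.8% of its exon sequence with Nif3l1, so its counts are uncertain. Orc6, a small subunit of the same complex, stood at 50.4, 70.6 and 47.01 CPM in CD61High and 31.5, 90.1 and 21.3 CPM in CD61Low. Again CD61Low of mouse 2 was the highest library and CD61Low of mouse 3 the lowest. In edgeR Orc6 had 0.23 (SE 0.55, adjusted p = 0.946) without the block, 0.49 (SE 0.29, adjusted p = 0.391) with it and, unblocked, -0.11 once CD61Low of mouse 3 was left out. Orc1, the subunit that is best known for its rise and loss over the cycle, had log2 differences of 0.88, -0.38 and 1.76 in mice 1, 2 and 3. With the block and without mouse 2, Cdc6 passed at 1.57 (SE 0.27, adjusted p = 0.0443) and Cdt1 at 1.53 (SE 0.16, adjusted p = 0.0204) in edgeR. The 3 Orc genes did not, with adjusted p of 0.0598 to 0.0825.

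All 6 subunits of the MCM2-7 helicase had higher levels in CD61High in each of the 3 mice. The log2 differences were 1.02 to 1.41 in mouse 1, 0.02 to 0.51 in mouse 2 and 1.48 to 2.12 in mouse 3. The median log2 fold change was 0.86 without the block and 1.06 with it. Mcm6 (ENSMUSG00000026355.11, GRCm38 chromosome 1, 128331590 to 128359664) stood at 835, 903 and 972 CPM in CD61High of mice 1, 2 and 3 and at 323, 634 and 338 CPM in CD61Low. All 3 CD61High libraries were above all 3 CD61Low libraries. In edgeR its log2 fold change was 1.07 (SE 0.300, adjusted p = 0.676) without the block and 1.14 (SE 0.22, adjusted p = 0.0758) with it. Mcm3, the neighbour of Mcm5 in the ring, stood at 523, 592 and 586 CPM in CD61High and 225, 456 and 210.0 CPM in CD61Low. Its groups did not overlap either. The edgeR fits gave 0.93 (SE 0.33, adjusted p = 0.715) and, with the block, 1.03 (SE 0.23, adjusted p = 0.0867). Mcm2, which forms the gate of the ring with Mcm5 and also binds histones, stood at 392, 526 and 500.4 CPM in CD61High and 168, 443 and 150.5 CPM in CD61Low. Between the groups lay CD61Low of mouse 2, above CD61High of mouse 1 and below the other CD61High libraries. For Mcm2 edgeR gave 0.897 (SE 0.45, adjusted p = 0.771) without the block and 1.07 (SE 0.29, adjusted p = 0.131) with it. Mcm5 stood at 367, 516 and 419.9 CPM in CD61High and 138, 508 and 96.5 CPM in CD61Low. Mouse 2 had nearly equal levels in both gates, and the other CD61Low libraries were the lowest of the 6. The estimates in edgeR were 0.81 (SE 0.64, adjusted p = 0.886) without the block and 1.19 (SE 0.404, adjusted p = 0.189) with it. Mcm4 and Mcm7 had log2 differences of 1.02, 0.18 and 1.498 and of 1.28, 0.16 and 1.67, in the order of the mice. All 6 subunits passed in edgeR with the block and without mouse 2, with adjusted p of 0.017 for Mcm6 to 0.0255 for Mcm4.

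The helicase holds 1 copy of each subunit, but the transcripts were not equally abundant per length. Levels are given here as mean CPM per kilobase of annotated exons (± SD, n = 3). Mcm6 was the most abundant, at 194 ± 14.6 in CD61High and 92.5 ± 37.6 in CD61Low. Mcm3 followed at 151 ± 10.1 in CD61High and 79.2 ± 36.8 in CD61Low, and Mcm5 at 109 ± 18.9 in CD61High and 62.04 ± 56.8 in CD61Low. The lower group held Mcm7 at 95.6 ± 16.7 in CD61High and 54.4 ± 40.05 in CD61Low, Mcm4 at 93.1 ± 12.6 in CD61High and 54.6 ± 31.1 in CD61Low, and Mcm2 at 67.96 ± 10.2 in CD61High and 36.5 ± 23.6 in CD61Low. In CD61High, Mcm6 and Mcm3 were each apart from the next gene by more than 1 SD, and so was Mcm4 from Mcm2. The steps from Mcm5 to Mcm7 and from Mcm7 to Mcm4 were smaller than 1 SD. In CD61Low, where mouse 2 was the highest for each subunit, the SDs were wider than each of these steps. Each SD is over mice, so it does not measure the steps between subunits within a library. Mcm6 was the highest and Mcm2 the lowest subunit in each CD61Low library. Mcm5 was below Mcm4 in CD61Low of mouse 1 (34.6 against 38.7) and mouse 3 (24.2 against 34.7), and above it in mouse 2. These lengths are the union of all annotated exons, so a gene with long rare exons appears lower. Mcm7 shares 12.6% of its exon sequence with another gene.

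**Figure D3:**
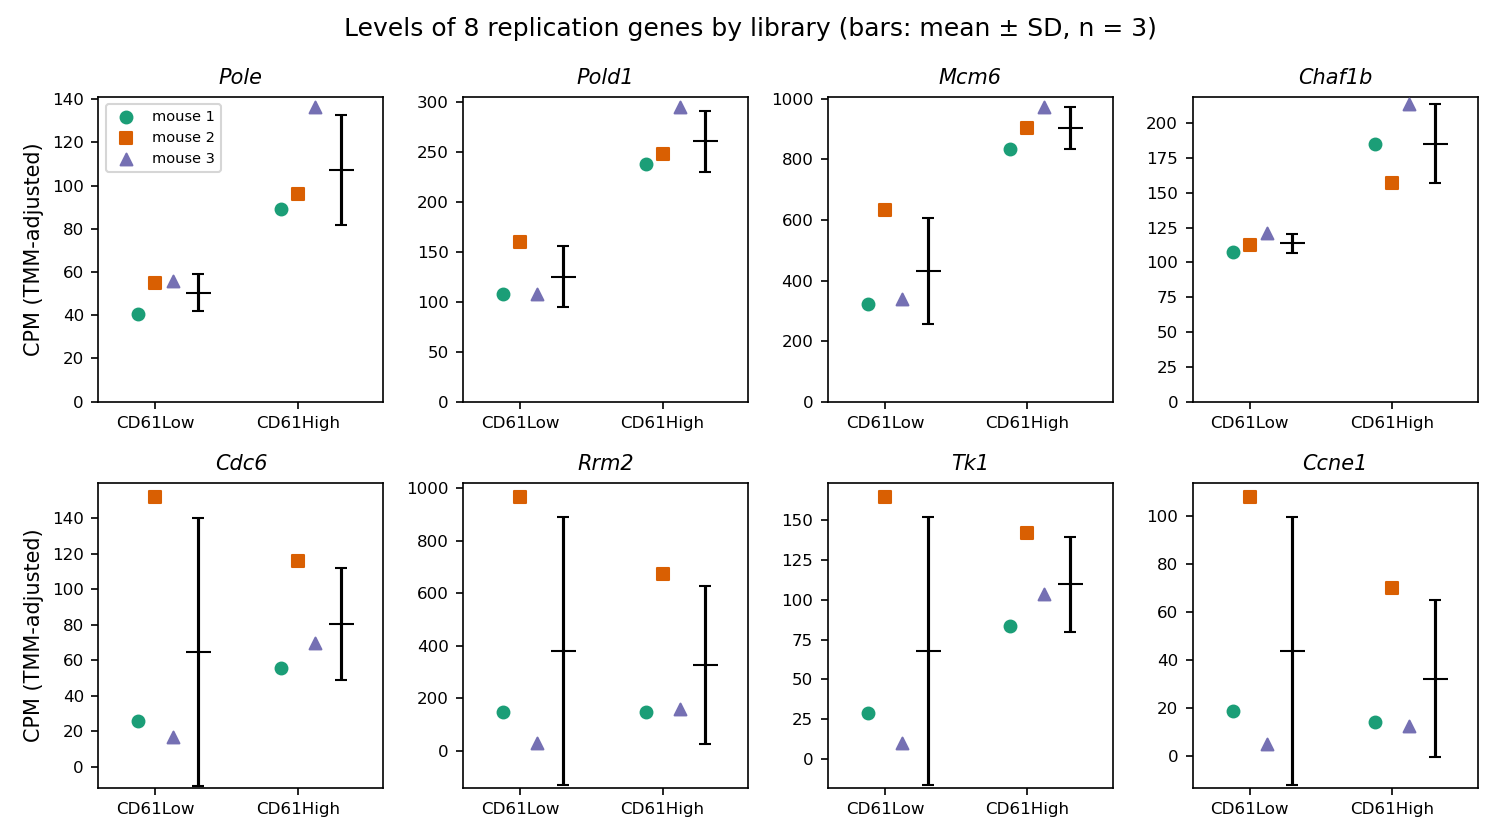
Level in each of the 6 libraries, in CPM, of 8 of the replication genes, with 1 point per library (colour and shape mark the mouse) and bars of mean ± SD (n = 3). Pole stays between 40.7 and 56.0 CPM in CD61Low of all 3 mice, whereas Rrm2 ranges from 29.4 to 965 CPM there.

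Genes that turn the loaded helicase on differed more between mice than the helicase itself. The median of Mcm10, Cdc45 and the 3 GINS genes was 0.67 without the block and 1.14 with it. In mouse 2, 2 of the 5 were higher in CD61High. Gins2, a subunit of the GINS complex that holds Cdc45 on the helicase, stood at 25.7, 32.4 and 31.2 CPM in CD61High and 10.5, 28.2 and 8.23 CPM in CD61Low. The groups overlapped in that CD61Low of mouse 2 lay above CD61High of mouse 1. Its edgeR estimate was 0.93 (SE 0.49, adjusted p = 0.793) without the block and 1.14 (SE 0.34, adjusted p = 0.147) with it, and its exons overlap those of Gse1 over 67.3% of their length. Gins1 stood at 23.1, 24.5 and 21.01 CPM in CD61High and 7.22, 31.8 and 4.24 CPM in CD61Low. The 3 CD61High libraries were nearly equal, while CD61Low of mouse 2 was above them and the other CD61Low libraries well below. The edgeR test gave 0.67 (SE 0.74, adjusted p = 0.937), and 1.204 (SE 0.54, adjusted p = 0.281) with the block. Mcm10, which helps to open the helicase rings at firing, stood at 30.8, 56.9 and 47.6 CPM in CD61High and 17.1, 46.9 and 2.64 CPM in CD61Low. CD61Low of mouse 3 was far below all other libraries, and its log2 difference of 4.13 was the largest of any of the 40 genes in any mouse. Mcm10 had 1.02 (SE 0.91, adjusted p = 0.917) in edgeR without the block and 1.59 (SE 0.78, adjusted p = 0.312) with it. Gins3 stood at 21.7, 31.1 and 30.6 CPM in CD61High and 17.1, 33.2 and 11.8 CPM in CD61Low. Mouse 2 had the highest level in both gates. The fits of Gins3 were 0.43 (SE 0.41, adjusted p = 0.926) and, blocked, 0.53 (SE 0.29, adjusted p = 0.351) in edgeR. Cdc45, the partner of the active helicase, had log2 differences of 1.37, -0.52 and 1.99 in mice 1, 2 and 3. With the block and without mouse 2, edgeR called Cdc45 at 1.66 (SE 0.21, adjusted p = 0.0257), Gins1 at 1.97 (SE 0.26, adjusted p = 0.028) and Gins2 at 1.59 (SE 0.24, adjusted p = 0.0356). It did not call Gins3 (adjusted p = 0.154) or Mcm10 (adjusted p = 0.266).

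The polymerases and primase were the role with the least spread between mice in both gates, and they held the 3 genes with the lowest p with the block. All 6 were higher in CD61High in each mouse, including mouse 2, where the log2 differences were 0.11 to 0.81. The median was 1.05 without the block and 1.12 with it, and leaving out any 1 library moved the unblocked median between 0.79 and 1.35. Pole (ENSMUSG00000007080.14, GRCm38 chromosome 5, 110286306 to 110337474), the catalytic subunit of polymerase epsilon, which copies the leading strand, stood at 89.1, 96.3 and 136 CPM in CD61High of mice 1, 2 and 3 and at 40.7, 54.8 and 56.04 CPM in CD61Low. The lowest CD61High library was above the highest CD61Low library. In edgeR its log2 fold change was 1.09 (SE 0.23, adjusted p = 0.652) without the block and 1.08 (SE 0.15, adjusted p = 0.0512) with it. With relative log expression factors in place of TMM factors, the blocked adjusted p of Pole was 0.0497, which passed as the only one of the 40, where 0.16% of genes were called higher. Pold1 (ENSMUSG00000038644.14, GRCm38 chromosome 7, 44532746 to 44548849), the catalytic subunit of polymerase delta, which copies the lagging strand, stood at 238, 249 and 296 CPM in CD61High and 108, 160.4 and 108 CPM in CD61Low. The groups did not overlap, and mice 1 and 3 had the same CD61Low level. The edgeR estimates were 1.06 (SE 0.21, adjusted p = 0.652) without the block and 1.08 (SE 0.18, adjusted p = 0.062) with it. Pola1 (ENSMUSG00000006678.6, GRCm38 chromosome X, 93304767 to 93632155), the catalytic subunit of polymerase alpha, which begins each new strand with primase, stood at 101, 109 and 144 CPM in CD61High and 46.7, 65.5 and 41.4 CPM in CD61Low. Here too all CD61High libraries were above all CD61Low libraries. Pola1 had 1.205 (SE 0.24, adjusted p = 0.652) in edgeR, and 1.21 (SE 0.22, adjusted p = 0.0657) with the block. Prim2, the large primase subunit, stood at 49.9, 66.1 and 64.8 CPM in CD61High and 20.8, 61.4 and 14.7 CPM in CD61Low. The groups overlapped, with CD61Low of mouse 2 above CD61High of mouse 1. Prim2 gave 0.900 (SE 0.55, adjusted p = 0.834) without and 1.17 (SE 0.39, adjusted p = 0.185) with the block in edgeR. Pola2, the second subunit of polymerase alpha, had log2 differences of 1.21, 0.11 and 1.304 with groups that did not overlap, and Prim1, which makes the RNA primer, had 1.67, 0.14 and 2.44. Without mouse 2 all 6 passed, with adjusted p from 0.0196 for Pola2 to 0.0362 for Prim2 in edgeR.

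Groups that did not overlap at all were found for 9 of the 40 genes, all higher in CD61High, where 8.62% of tested genes had such groups. Beside Mcm3, Mcm6, Pola1, Pola2, Pold1 and Pole, they were Rfc5, Chaf1b and Ung. The reverse, with all CD61Low libraries above all CD61High libraries, was seen for 0 of 40, against 5.71% of tested genes.

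Genes of the sliding clamp, its loader and the joining of Okazaki fragments, the short pieces of the lagging strand, had a median of 0.62 without the block and 0.92 with it. Of the 5 genes, 2 were higher in CD61High of mouse 2. Rfc5 (ENSMUSG00000029363.14, GRCm38 chromosome 5, 117378103 to 117389047), a subunit of the loader that opens the clamp, stood at 174, 163 and 207 CPM in CD61High and 85.7, 125 and 81.8 CPM in CD61Low. Each CD61High library was above each CD61Low library. The edgeR log2 fold change was 0.896 (SE 0.22, adjusted p = 0.652) without the block and 0.92 (SE 0.201, adjusted p = 0.0833) with it. Pcna, the clamp itself, stood at 151, 191 and 148 CPM in CD61High and 73.1, 212 and 60.4 CPM in CD61Low. The highest library was CD61Low of mouse 2. Pcna had 0.504 (SE 0.498, adjusted p = 0.926) in edgeR and 0.73 (SE 0.296, adjusted p = 0.243) with the block. Lig1, the ligase that seals the fragments, stood at 161, 252 and 248 CPM in CD61High and 66.6, 247 and 45.2 CPM in CD61Low. Both libraries of mouse 2 were level with CD61High of mouse 3, and the other CD61Low libraries were lower than all of these. Its edgeR values were 0.88 (SE 0.66, adjusted p = 0.881) and, blocked, 1.25 (SE 0.46, adjusted p = 0.21). Fen1, the nuclease that trims the flaps between fragments, stood at only 0.645, 1.44 and 1.66 CPM in CD61High and 0.365, 1.68 and 0.559 CPM in CD61Low. Gm10143 overlaps 84.2% of its exon sequence, and reads there are ambiguous and uncounted, so the level of Fen1 is uncertain. The test gave 0.53 (SE 0.71, adjusted p = 0.94) in edgeR, and 0.697 (SE 0.55, adjusted p = 0.504) with the block. Rfc4, another loader subunit, had log2 differences of 1.18, -0.196 and 1.81 in mice 1, 2 and 3. With the block and without mouse 2, Pcna passed at 1.15 (SE 0.13, adjusted p = 0.0233), Rfc4 at 1.48 (SE 0.204, adjusted p = 0.0304) and Rfc5 at 1.17 (SE 0.14, adjusted p = 0.0235) in edgeR. Lig1 (adjusted p = 0.0642) and Fen1 (adjusted p = 0.308) did not.

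Nucleotide supply genes ranged widely between mice. Their summed CD61High level was 1.96, 0.846 and 4.41 times that of CD61Low in mice 1, 2 and 3. The median log2 fold change was 0.73 without the block and 1.07 with it, and in mouse 2 only Rrm1 was higher in CD61High, by 0.01. Rrm1 (ENSMUSG00000030978.10, GRCm38 chromosome 7, 102441695 to 102469771), the large subunit of ribonucleotide reductase, which makes deoxynucleotides, stood at 494, 735 and 597 CPM in CD61High and 224, 732 and 142 CPM in CD61Low. Mouse 2 had the same level in both gates, above all other libraries. The edgeR estimates were 0.73 (SE 0.62, adjusted p = 0.897) without the block and 1.07 (SE 0.39, adjusted p = 0.21) with it. Rrm2 (ENSMUSG00000020649.11, GRCm38 chromosome 12, 24708241 to 24714146), the small subunit of the same enzyme, stood at 147, 672 and 158 CPM in CD61High and 149.5, 965 and 29.4 CPM in CD61Low. Both mouse 2 libraries were several times above the rest, and CD61Low of mouse 3 was far below. Rrm2 had -0.23 (SE 1.25, adjusted p = 0.978) in edgeR and 0.56 (SE 0.59, adjusted p = 0.628) with the block, so its sign turned with the block. Tyms, the thymidylate synthase, stood at 106, 150.2 and 124 CPM in CD61High and 36.3, 168 and 21.6 CPM in CD61Low. CD61Low of mouse 2 was the highest library and CD61Low of mouse 3 the lowest. The fits gave 0.75 (SE 0.76, adjusted p = 0.927) and 1.31 (SE 0.51, adjusted p = 0.232) with the block in edgeR. Dut, the enzyme that removes dUTP so that uracil stays out of DNA, stood at 143, 135 and 137 CPM in CD61High and 57.9, 138 and 50.2 CPM in CD61Low. All CD61High libraries and CD61Low of mouse 2 were within a narrow band, and the other CD61Low libraries were well below it. The edgeR values were 0.76 (SE 0.401, adjusted p = 0.794), and 0.91 (SE 0.31, adjusted p = 0.191) with the block. Tk1, the thymidine kinase of dividing cells, had log2 differences of 1.53, -0.21 and 3.35, the second largest of the 40 genes in mouse 3. Once mouse 2 was left out, edgeR with the block called Rrm1 at 1.59 (SE 0.26, adjusted p = 0.0472), Tyms at 2.02 (SE 0.27, adjusted p = 0.0348) and Dut at 1.36 (SE 0.13, adjusted p = 0.0189). It did not call Tk1 (adjusted p = 0.112) or Rrm2 (adjusted p = 0.418).

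Genes of chromatin assembly, histone mRNA and uracil repair had a median of 0.90 without the block and 0.98 with it, and 4 of 5 were higher in CD61High of mouse 2. Chaf1b (ENSMUSG00000022945.12, GRCm38 chromosome 16, 93883901 to 93906115), a subunit of the chaperone that places histones on new DNA, stood at 185, 157 and 214 CPM in CD61High and 107, 113 and 121 CPM in CD61Low. The CD61Low libraries were close to each other and all below the CD61High libraries. In edgeR the log2 fold change was 0.703 (SE 0.16, adjusted p = 0.652) without the block and 0.69 (SE 0.14, adjusted p = 0.0742) with it. Ung, the glycosylase that takes uracil out of DNA, stood at 6.71, 6.32 and 10.8 CPM in CD61High and 1.68, 4.31 and 2.35 CPM in CD61Low. The groups did not overlap, at low levels. Ung had 1.52 (SE 0.47, adjusted p = 0.676) in edgeR and 1.59 (SE 0.402, adjusted p = 0.105) with the block, the largest estimate of the 40 without the block. Uhrf1, which brings the maintenance DNA methyltransferase to newly copied strands, stood at 204, 292 and 237 CPM in CD61High and 67.00, 239.6 and 42.8 CPM in CD61Low. CD61Low of mouse 2 was in the CD61High range, and the other CD61Low libraries were far below. The edgeR estimates were 1.07 (SE 0.65, adjusted p = 0.834) without the block and 1.46 (SE 0.42, adjusted p = 0.141) with it. Slbp, the protein that binds the stem-loop of histone mRNA, stood at 167, 273 and 186 CPM in CD61High and 94.1, 344 and 58.9 CPM in CD61Low. The highest and lowest libraries were both CD61Low, of mouse 2 and mouse 3. Slbp had 0.33 (SE 0.67, adjusted p = 0.94) in edgeR, 0.72 (SE 0.38, adjusted p = 0.338) with the block and, unblocked, -0.06 once CD61Low of mouse 3 was left out. Chaf1a, the large subunit beside Chaf1b, had log2 differences of 0.72, 0.19 and 2.04, and 52.5% of its exon sequence overlaps Ubxn6. Once mouse 2 was left out, edgeR with the block called Chaf1b at 0.79 (SE 0.11, adjusted p = 0.0312), Uhrf1 at 2.02 (SE 0.24, adjusted p = 0.0279) and Ung at 2.09 (SE 0.32, adjusted p = 0.0355). It did not call Slbp (adjusted p = 0.0546) or Chaf1a (adjusted p = 0.11).

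The G1/S switch genes were the only role with 0 genes higher in CD61High of mouse 2. Their median was 0.40 without the block and 0.92 with it. Unblocked, it ranged from -0.08 (without CD61High of mouse 2) to 1.78 (without CD61Low of mouse 2) when single libraries were left out. With the block it was 0.22 to 1.47 when 1 mouse was left out. E2f1 (ENSMUSG00000027490.17, GRCm38 chromosome 2, 154559407 to 154569892), the activating transcription factor, stood at 49.1, 64.4 and 63.6 CPM in CD61High and 18.6, 68.5 and 11.8 CPM in CD61Low. CD61Low of mouse 2 was the highest library by a small margin. E2f1 had 0.84 (SE 0.66, adjusted p = 0.884) in edgeR and 1.25 (SE 0.48, adjusted p = 0.226) with the block. Ccne1 (ENSMUSG00000002068.16, GRCm38 chromosome 7, 38097984 to 38107534), cyclin E1, stood at 14.03, 70.2 and 12.7 CPM in CD61High and 18.7, 108 and 4.803 CPM in CD61Low. Both libraries of mouse 2 were far above the rest, and in mice 1 and 2 CD61Low was the higher gate. Its edgeR estimate was -0.44 (SE 1.22, adjusted p = 0.951), and 0.07 (SE 0.41, adjusted p = 0.943) with the block. Ccne2, cyclin E2, stood at 36.4, 87.9 and 43.9 CPM in CD61High and 24.6, 94.9 and 8.04 CPM in CD61Low. Mouse 2 again had the highest level in each gate. Ccne2 gave 0.400 (SE 0.88, adjusted p = 0.943) without and 0.92 (SE 0.49, adjusted p = 0.347) with the block in edgeR and, unblocked, -0.07 once CD61Low of mouse 3 was left out. Ints8 overlaps 17.4% of its exon sequence. Of the 3 genes, edgeR with the block and without mouse 2 called E2f1, at 1.897 (SE 0.29, adjusted p = 0.0372), while the adjusted p was 0.201 for Ccne2 and 0.622 for Ccne1.

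The spread between mice was larger in CD61Low than in CD61High. Across the 3 mice, the median SD of log2 CPM of the 40 genes was 0.25 in CD61High and 1.07 in CD61Low, against 0.32 and 0.45 over all tested genes. The SD was larger in CD61Low for 38 of 40 genes, as for 65.6% of all tested genes. CD61Low of mouse 2 was the highest CD61Low library for 38 of 40, as for 43.5% of all tested genes. CD61Low of mouse 3 was the lowest of all 6 libraries for 33 of 40, as for 17.5% of all tested genes. Mouse 2 over mouse 3 in CD61Low had a median fold of 4.21, and 32 of 40 genes were at least 2-fold higher in mouse 2, where 19.2% of all genes with a count in mouse 3 were. It ran from 0.93 for Chaf1b and 0.98 for Pole to 32.9 for Rrm2, 22.5 for Ccne1, 17.7 for Mcm10 and 16.3 for Tk1. In CD61High the median fold of mouse 2 over mouse 3 was 1.06, and 2 of 40 reached 2-fold, where 12.1% of all genes did. By role, the median CD61Low fold of mouse 2 over mouse 3 was 1.805 for the polymerases, 2.78 for MCM2-7, 7.803 for nucleotide supply and 11.8 for the G1/S switch.

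Other genes of the same pathway, from a list of 49, had smaller differences. Without the block 0 of 49 passed in edgeR, while an unadjusted p under 0.05 was reached by 6 in the higher and 0 in the lower direction, where 3.56% and 3% of all genes reached it. Their median log2 fold change was 0.43, with 45 of 49 above 0. With the block 0 passed, the median was 0.52, and an unadjusted p under 0.05 was reached by 19 higher and 2 lower genes, where 8.01% and 12.8% of all genes reached it. Without mouse 2 the blocked test called 20 of 49 higher and 0 lower, where it called 1.85% and 2.93% of all genes. Pold2, the accessory subunit of polymerase delta, stood at 145, 125 and 163 CPM in CD61High and 88.8, 77.1 and 84.1 CPM in CD61Low. Its groups did not overlap, and its edgeR estimate was 0.79 (SE 0.15, adjusted p = 0.652), and 0.79 (SE 0.13, adjusted p = 0.062) with the block. Dnmt1, the maintenance DNA methyltransferase that Uhrf1 recruits, stood at 425, 500.1 and 632 CPM in CD61High and 212, 322 and 209 CPM in CD61Low. Its groups did not overlap either, and edgeR gave 1.07 (SE 0.25, adjusted p = 0.652) and, blocked, 1.08 (SE 0.202, adjusted p = 0.0681). The other 2 with the smallest p in this direction were Rfc2, a clamp loader subunit, at 0.79 (SE 0.203, adjusted p = 0.109) with the block, and Hells, a chromatin remodeller, at 1.503 (SE 0.36, adjusted p = 0.109), both in edgeR. All 4 passed with the block and without mouse 2, with adjusted p of 0.0255 for Rfc2 to 0.0424 for Hells in edgeR. Only 3 of the 49 had a blocked estimate below 0. Samhd1, which breaks deoxynucleotides down, stood at 72.5, 208 and 51.3 CPM in CD61High and 109.6, 357 and 72.2 CPM in CD61Low. It was lower in CD61High in each mouse, with -0.699 (SE 0.78, adjusted p = 0.937) in edgeR and -0.62 (SE 0.13, adjusted p = 0.0775) with the block. Rrm2b, the reductase subunit used outside S phase, stood at 14.9, 10.99 and 13.6 CPM in CD61High and 28.5, 13.5 and 19.3 CPM in CD61Low. Rrm2b was also lower in CD61High in each mouse, opposite to Rrm1, with -0.63 (SE 0.33, adjusted p = 0.786) in edgeR and -0.58 (SE 0.21, adjusted p = 0.193) with the block. The last was E2f2, at -0.31 (SE 0.56, adjusted p = 0.796) with the block, whose log2 differences were -1.27, -0.92 and 1.498 in mice 1, 2 and 3.

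Genes of later steps of the cycle showed the difference between mice in a stronger form. The 20 G2 and mitosis markers summed to 1864, 3904 and 2357 CPM in CD61High of mice 1, 2 and 3 and to 877, 5016 and 244 CPM in CD61Low. CD61High thus held 2.13, 0.778 and 9.64 times the CD61Low level. In mouse 1 and mouse 3, 20 of 20 were higher in CD61High, and in mouse 2 only 3 of 20 were. The median log2 fold change was 0.45 without the block and 1.33 with it. Calls in edgeR were 0 of 20 in both fits. At an unadjusted p under 0.05, 0 were higher without and 2 with the block, where 3.56% and 8.01% of all genes were. With the block and without mouse 2, 1 was called, Ttk, where 1.85% of all genes were called higher. Ttk, a kinase of the spindle checkpoint, stood at 29.9, 51.3 and 42.7 CPM in CD61High and 11.3, 39.5 and 6.85 CPM in CD61Low. CD61Low of mouse 2 was above CD61High of mouse 1. In edgeR Ttk had 1.103 (SE 0.67, adjusted p = 0.834) without the block, 1.45 (SE 0.43, adjusted p = 0.154) with it and 1.997 (SE 0.35, adjusted p = 0.0454) without mouse 2. The others with the smallest blocked p were Bub1b and Bub1, also of the checkpoint, at 1.56 (SE 0.61, adjusted p = 0.228) and 1.58 (SE 0.699, adjusted p = 0.275) in edgeR.

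**Figure D4:**
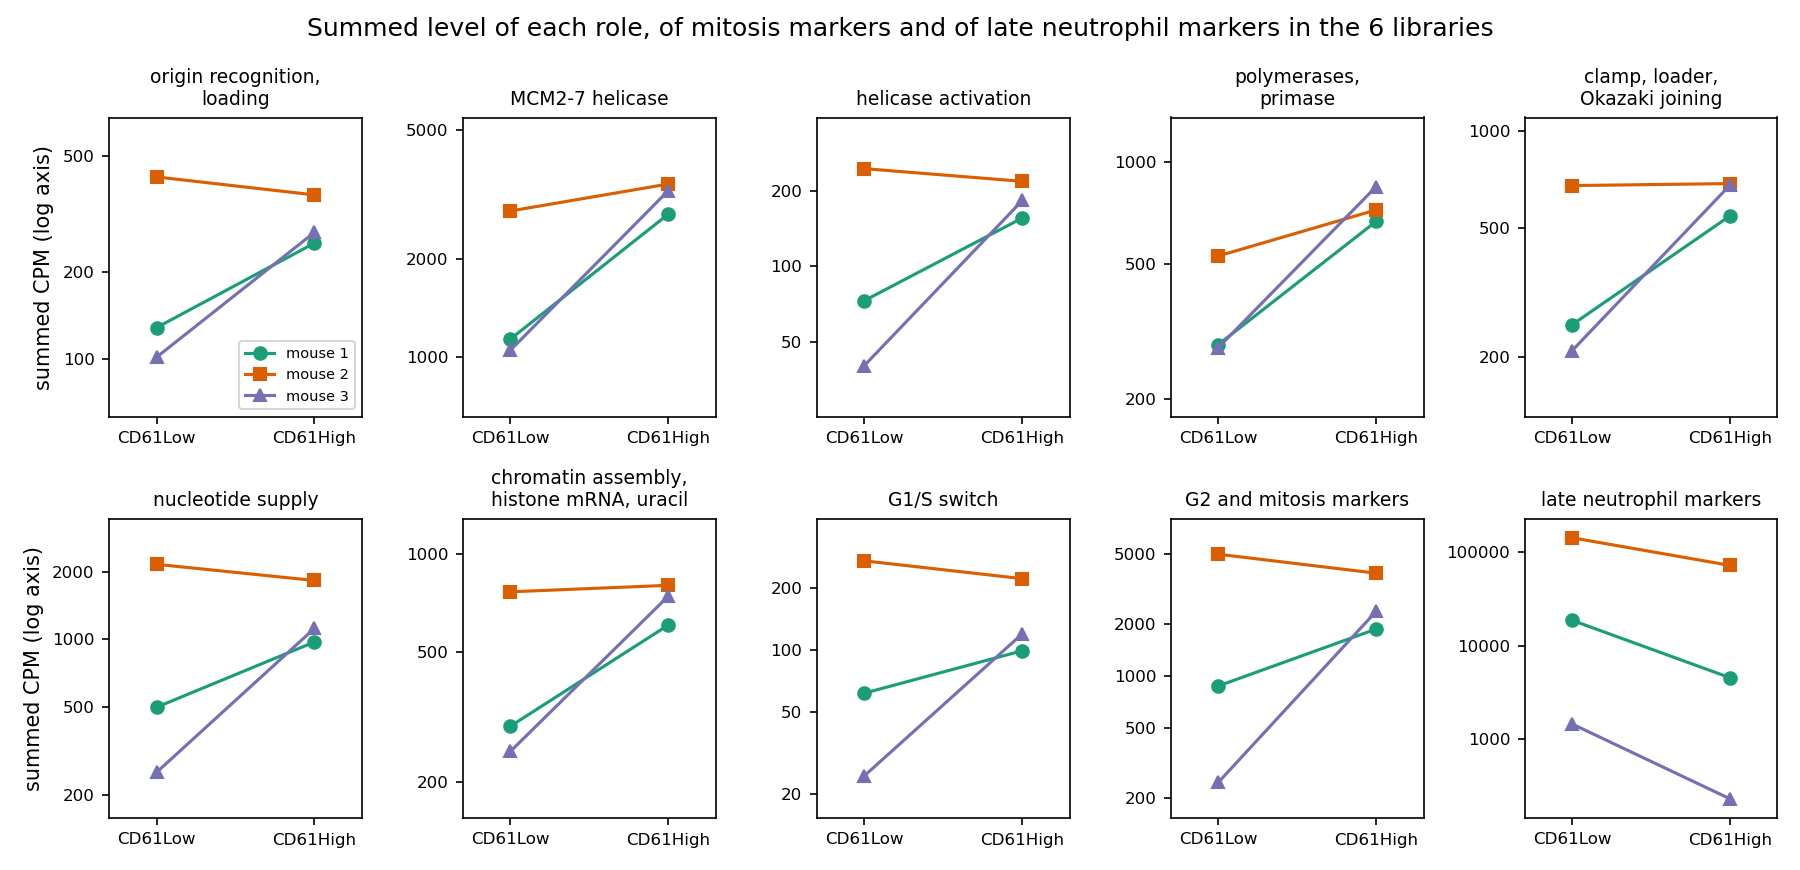
Summed level in CPM, on a log axis, of each role of the replication genes, of the G2 and mitosis markers and of the late neutrophil markers in each of the 6 libraries, with a line joining the gates of a mouse. Each role is higher in CD61High of mice 1 and 3, mouse 2 runs nearly level (from 0.82 times for the G1/S switch to 1.37 times for the polymerases), and the late neutrophil markers are lower in CD61High of each mouse.

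Markers of other blood cells also had different levels in the gates. The 6 early granulocyte markers (Mpo, Elane, Prtn3, Ctsg, Ms4a3 and Fcnb), which mark progenitors known to divide, summed to 609, 4919.6 and 159 CPM in CD61High and 1327, 7577 and 424 CPM in CD61Low. All 6 were lower in CD61High in each mouse, and both libraries of mouse 2 were the highest. In CD61High of mouse 3, nearly all of the sum came from Prtn3, at 157 CPM. There Ms4a3 was at 1.03 CPM, Fcnb at 0.55 CPM, Mpo at 0.41 CPM, Elane at 0.30 CPM and Ctsg at 0, a count that allows up to 0.111 CPM. The 10 late neutrophil markers were lower in CD61High in each mouse, at 0.242, 0.505 and 0.157 times the CD61Low level. The 10 erythroid markers summed to 3731, 16023 and 2960.2 CPM in CD61High and 4496, 33294 and 2659.7 CPM in CD61Low. Lower in CD61High were 8 of the 10 in mouse 1, 10 in mouse 2 and 7 in mouse 3, although the sum of mouse 3 was higher there. Of all 15610 tested genes, 7796, 8609 and 7967 were lower in CD61High of mice 1, 2 and 3. The 9 B lineage markers summed to 83.3, 329 and 46.5 CPM and 192, 561 and 54.7 CPM, and the 6 T and NK markers to 118, 246 and 81.5 CPM and 129.8, 361 and 98.7 CPM. At 0 were 2 B lineage and 2 T and NK markers in CD61High of mouse 3, 1 of each in CD61Low of mouse 3, and 1 B lineage marker in CD61High of mouse 1. The 7 megakaryocyte markers summed to 1493, 1062 and 1659.6 CPM in CD61High and 699, 409 and 963 CPM in CD61Low. Their sum was higher in CD61High in each mouse, mouse 2 included, and 1 of the 7 was at 0 in CD61Low of mouse 1. The 3 multipotent progenitor markers (Cd34, Flt3 and Cd48) summed to 290.1, 297 and 300.0 CPM and 169, 233 and 153 CPM. Cd48, whose protein the sort excluded, stood at 5.55, 59.9 and 1.07 CPM in CD61High and 29.6, 129.8 and 1.68 CPM in CD61Low. The part of these other cells in the replication gene levels was not tested.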

How the data were processed

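Bulk RNA-seq of 3 CD61High and 3 CD61Low samples was analysed. The authors deposited unnormalized read counts per gene, and STAR 2.7, MultiQC and edgeR are named per the submitters' processing notes. The genome build is not given in the sources used here, but all 55450 identifiers are those of GENCODE M21 on GRCm38. Per the labels' protocols, cDNA was made with SMART-Seq v4 from 4 ng of RNA and libraries with Nextera XT from 1 ng of cDNA, with no strand mark, so overlapping genes cannot be told apart. Reads of no gene stayed out of all totals: 4.36% to 10.9% of a library was unmapped, 10.0% to 15.6% mapped to several places, 2.88% to 4.21% lay outside genes, and 3.55% to 4.37% was ambiguous.

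The test was the quasi-likelihood F-test of edgeR 4.0.16, run in R 4.3.3 (TMM factors, filterByExpr, robust dispersions, two-sided, Benjamini-Hochberg adjustment over 15610 genes, called at an adjusted p under 0.05). Standard errors were derived from the F statistic, and the script was tested on simulated data. CPM values are TMM-adjusted, and log2 CPM carries a prior count of 2. The titles give the mouse of each library, which pairs the libraries. Deviations from the group means correlated at 0.236, 0.806 and 0.761 within mice 1, 2 and 3. Between libraries of different mice they correlated at -0.903 to 0.374. Deviations within a gate cancel out for each gene, so same-gate correlations, the lowest included, are partly low by construction. For pairs that differed in both gate and mouse, the range was -0.823 to 0.374. The value of mouse 1 lay inside this range, so it does not set that pair apart. The labels name no block, so fits are given without and with it. Alternatives were other scalings, no filter, DESeq2 1.42.0, limma 3.58.1 (voom) and leaving out libraries or mice. Full values went, per role, to the 3 genes with the smallest and the 1 with the largest blocked p. From the other replication genes the 4 with the smallest blocked p per direction are named, and from the mitosis markers 3. Members and lists were chosen with earlier results of these data known, so no list test was run. Since the libraries carry no molecular identifiers, floors, set at 3 counts, cover counting error only. No 2 libraries agreed within sampling noise. One further HSC marker is not reported here.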

Additional observations from a re-analysis of the deposited data

How the results depend on the processing

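The mouse numbers in the labels pair the libraries. In edgeR with TMM factors the replicate block changed no call among the 40 replication genes, with 0 called with and without it. The number called higher was 27 with the block and without mouse 2, but 0 with the block and without mouse 1 or mouse 3. It was 1 with the block and relative log expression factors. It was 4 in DESeq2, 21 in DESeq2 with the block and 7 in limma voom with the block. For the other replication genes these counts were 20 with the block and without mouse 2, 2 in DESeq2, 13 higher and 1 lower in DESeq2 with the block (where it called 3.23% of all genes higher and 7.87% lower) and 2 in voom with the block (0.801% higher and 2.33% lower). For the mitosis markers the count was 1 with the block and without mouse 2 and 1 in DESeq2 with the block. None of the 20 alternative settings called any of the 40 lower. The share of all genes called lower was at most 7.87%, in DESeq2 with the block. Leaving out any 1 library gave 0 calls among the 40, and also 0 over all tested genes in both directions.

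Without the block, leaving out CD61Low of mouse 3 gave the lowest median log2 fold change of all 40 genes, 0.47. Leaving out CD61Low of mouse 2 gave the highest, 1.602. Such unblocked fits without 1 library moved the median of origin loading between -0.11 and 1.64 and of helicase activation between 0.24 and 1.81. For the G1/S switch they gave -0.082 to 1.78. With the block, leaving out 1 mouse gave 0.64 to 1.45 for all 40 genes and 0.25 to 1.32 for origin loading. It gave 0.56 to 1.66 for helicase activation and 0.22 to 1.47 for the G1/S switch. Of the 31 genes with full values, 25 kept their sign in each setting. When single libraries were left out without the block, the sign turned for Orc6 (-0.11 to 1.09), Cdc6 (-0.12 to 1.92), Slbp (-0.062 to 1.45) and Ccne2 (-0.082 to 1.78). With the block, leaving out 1 mouse kept each of these above 0, at 0.16 to 0.89, 0.35 to 1.57, 0.24 to 1.23 and 0.22 to 1.47. Rrm2 ranged from -1.32 to 1.86 and Ccne1 from -1.72 to 1.46 without the block when single libraries were left out. With the block and without mouse 3 they were at -0.28 and -0.52. Rrm2 was above 0 with the block (0.56), with it and without mouse 1 (0.94) or mouse 2 (1.17), and with it under relative log expression factors (0.54) or library totals alone (0.66). It was also above 0 in DESeq2 with the block (0.55), in voom without (0.64) and with the block (0.56), and with library totals alone (0.030). Ccne1 was above 0 with the block (0.067), with it and without mouse 1 (0.35) or mouse 2 (0.45), and with it under relative log expression factors (0.044) or library totals alone (0.17). The same held in DESeq2 with the block (0.063) and in voom (0.21). The cause was not tested. Counts were lowest for Fen1 and Ung, with as few as 10 and 46 in a library. For Fen1, reads in the 84.2% of its exon sequence that Gm10143 overlaps are uncounted.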
